A study of Mus musculus with 7 samples.

Results

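Of 45 listed mouse genes of the interferon response and of peptide presentation by major histocompatibility complex (MHC) class I, 40 were measured among the 12393 genes of the table. They are described in primary keratinocytes, the epithelial cells of the epidermis, after silencing of Trp63, which encodes the epithelial transcription factor p63. A gene was read from the probe set that carries its symbol alone, and from the one with the highest mean where there were several. The interferon group had 30 of its 34 listed genes measured and the presentation group 10 of its 11. Isg15 and Psme2 had only a probe set shared with other symbols, and Rigi, Ifi44 and Xaf1 were not analysed here.

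The cells had been transiently transfected with small interfering RNA (siRNA) oligonucleotides and collected 48 h later. One group of 5 arrays (replicates 1, 2, 3, 4 and 7) received Trp63 siRNA, and the other of 2 arrays (replicates 5 and 6) received control siRNA. Both groups therefore carried transfected RNA, and no array of untransfected cells was analysed here, so the effect of either oligonucleotide against untransfected cells was not measured. Strain and age of the mice are not given in the sources used here. Nor do they state whether replicates came from different cultures, so the p-values describe the spread between these arrays only, and that spread may be technical.

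Interferons bind surface receptors, and the kinases attached to those receptors phosphorylate transcription factors of the STAT family. Type I interferon acts through a complex that contains STAT2 and IRF9 and binds the interferon-stimulated response element (ISRE), while interferon gamma acts through STAT dimers that bind the gamma-activated site (GAS). Many of the induced genes restrict viruses, and others supply the class I pathway, in which the proteasome cuts proteins to peptides, a transporter carries them into the endoplasmic reticulum, and tapasin helps to load them onto class I molecules. Keratinocytes can sense foreign RNA and respond to interferons, and they carry class I molecules on their surface.

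RefSeq promoter sequences (GRCm38.p6) were found for 33 of the 40 measured genes. These 33 genes had 39 promoter entries, and a member counted as matched if any of its entries did. The shares of all promoters are per entry. The ISRE letters, GAAA, then 2 bases of any kind, then GAAA, searched on both strands in the 250 bases before each start, occurred in 2.98% of 32851 promoters of all genes, in 10 of 24 interferon members and in 1 of 9 presentation members. The GAS letters TTCNNNGAA, which read the same on both strands in their fixed bases, occurred in 7.02% of all promoters, in 6 of 24 interferon members and in 1 of 9 presentation members. The windows below run 5′ to 3′ on the gene's strand from base -160 to base -61 before the start. Matches to either motif are in capitals. The windows, which all hold a match, were chosen to set 3 members that rose with Trp63 siRNA (Bst2, B2m and Irf1) beside 2 that did not pass the test (Ifit1 and Psmb8). Tapbp, Tlr3, Oasl2 and Psme1 also rose and had no match to either motif in the bases searched.
Bst2: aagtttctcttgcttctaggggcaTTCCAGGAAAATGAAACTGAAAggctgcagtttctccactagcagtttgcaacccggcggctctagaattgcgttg
B2m: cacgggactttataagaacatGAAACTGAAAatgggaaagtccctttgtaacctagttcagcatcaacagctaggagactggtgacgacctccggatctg
Irf1: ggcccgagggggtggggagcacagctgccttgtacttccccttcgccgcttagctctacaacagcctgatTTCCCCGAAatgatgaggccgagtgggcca
Ifit1: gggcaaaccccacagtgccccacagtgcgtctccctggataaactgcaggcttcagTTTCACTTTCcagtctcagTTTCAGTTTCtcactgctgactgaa
Psmb8: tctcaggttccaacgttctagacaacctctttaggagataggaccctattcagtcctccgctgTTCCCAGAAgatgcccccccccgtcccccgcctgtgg
The Bst2 window (chr8:71537533-71537632, minus strand) holds a GAS match that overlaps the first of 2 overlapping ISRE matches. The B2m window (chr2:122147527-122147626, plus strand) holds 1 ISRE match, and the Irf1 window (chr11:53769854-53769953, plus strand) 1 GAS match. The Ifit1 window (chr19:34640729-34640828, plus strand) holds 2 ISRE matches on the opposite strand, and the Psmb8 window (chr17:34198035-34198134, plus strand) 1 GAS match. An ISRE match was present in 2 of the 7 members with a promoter entry that rose and in 9 of the 25 that did not pass. A GAS match was present in 2 of those 7 and in 5 of those 25. These are matches of letters, and binding was not measured.

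Trp63 itself read 541, 519, 457, 504 and 492 in the Trp63 siRNA arrays, against 1447 and 1683 in the control siRNA arrays. Every silenced array was below both controls, and intensity was 3.05-fold lower (-1.61 on the log2 scale, SE 0.088, limma adjusted p = 1.0e-05). Values are the deposited intensities. Differences are Trp63 siRNA minus control siRNA on the log2(intensity + 16) scale, tested with limma over 22626 probe sets with Benjamini-Hochberg adjustment and a threshold of 0.05. Median intensity lay between 207 and 214 on the 7 arrays, whose number limits the precision. The arrays also fell into a set with high melanocyte markers (Trp63 siRNA replicates 1 and 2, control replicate 5) and a set with low ones (Trp63 siRNA replicates 3, 4 and 7, control replicate 6). Dct, a pigment enzyme gene, read 4083, 4463, 2435, 2392 and 2306 in the Trp63 siRNA arrays, against 3749 and 2453 in the controls. The 3′ to 5′ ratio of the beta-actin probe sets, a sign of RNA integrity, was 1.14 to 1.25 with Trp63 siRNA and 1.30 and 1.36 with control siRNA, without overlap, and its part in the results was not tested.

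Most interferon-induced genes did not pass the test after Trp63 silencing, while a small group led by Bst2 and Tlr3 was higher. Of the 30 interferon members, 5 rose (Bst2, Tlr3, Irf1, Rtp4 and Oasl2), 1 fell (Stat3) and 24 did not pass. The share that rose was 16.7%, and over all genes 8.03% rose. The share that fell was 3.33%, and over all genes 8.57% fell. The median log2 difference of the 30 members was 0.08, against -0.04 for all genes, and 23 of the 30 differences were above 0. Over all genes, 4506 of 12393 differences were above 0. In this bulk RNA, fewer cells that express a gene and less RNA per cell cannot be told apart.

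Of the 10 presentation members, 3 rose (Tapbp, B2m and Psme1), a share of 30.0%, none fell in the limma test, and 7 did not pass. Over all genes, 8.03% rose and 8.57% fell. At an unadjusted p under 0.05, a cut for which no share of all genes is given here, 1 uncalled member had a difference below 0 (Tap1). The median log2 difference of the 10 members was 0.01, against -0.04 for all genes. The genes of tapasin, beta-2 microglobulin and a proteasome activator were thus higher, and those of the immunoproteasome and the peptide transporter did not pass.

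**Figure D1:**
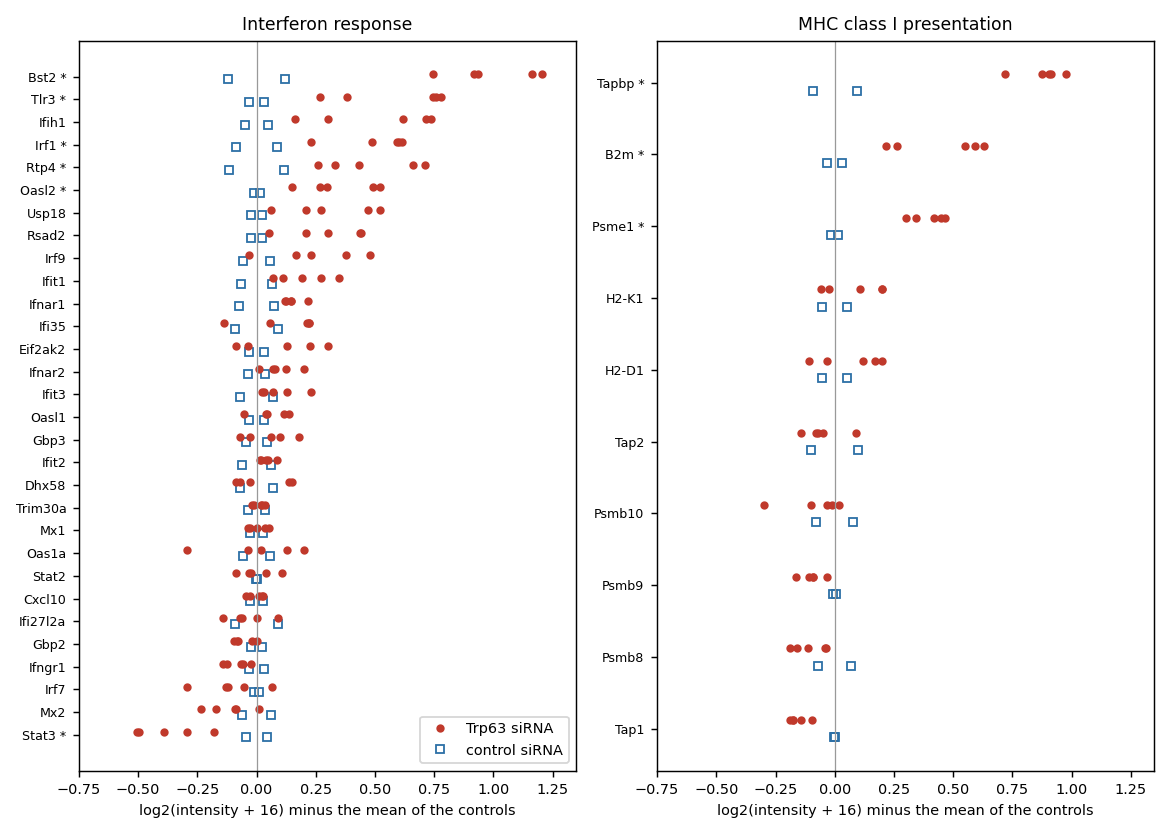
The 40 measured members (rows, interferon response left, presentation right) in the 7 arrays. The horizontal axis is log2(intensity + 16) minus the mean of the 2 controls. Red circles are the 5 Trp63 siRNA arrays, open blue squares the 2 controls, and a star marks members past the threshold. Bst2 and Tapbp stand out in all 5 silenced arrays, and most other rows stay close to the control level.

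The interferon ligands were among the further genes of the pathway, and neither passed. Ifnb1, which encodes interferon beta, read 105, 99.2, 99.6, 108 and 107 in the Trp63 siRNA arrays, against 108 and 99.7 in the controls. Ifng, which encodes interferon gamma, read 81.7, 76.2, 80.7, 76.5 and 76.5 with Trp63 siRNA, against 81.6 and 80.9 with control siRNA. Both genes were named after their values were seen, and both lay below the 25th percentile of probe set means (119), where, without detection calls, a low transcript cannot be told apart from none.

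Among 4 receptor genes, 1 rose. Tlr3, the endosomal receptor for double-stranded RNA, read 146, 160, 215, 212 and 210 in the Trp63 siRNA arrays, against 122 and 116 in the controls. All 5 silenced arrays were above both controls, with replicates 1 and 2 the nearest to them. The difference was 0.59 (SE 0.14, 1.50-fold, limma adjusted p = 0.0220), and the second Tlr3 probe set also passed at 0.39 (limma adjusted p = 0.00478).

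The receptors for interferon itself did not pass. Ifnar1, a chain of the type I interferon receptor, averaged 230 ± 6.75 with Trp63 siRNA (SD, n = 5) and 206 ± 15.8 with control siRNA (SD, n = 2). Its difference was 0.15 (limma adjusted p = 0.130), with every silenced array above both controls. Ifnar2, the other chain, differed by 0.10 and Ifngr1, a chain of the interferon gamma receptor, by -0.08. Ifngr1 read 379, 370, 368, 353 and 348 in the Trp63 siRNA arrays, against 377 and 394 in the controls, and the groups overlapped.

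Neither cytosolic RNA sensor passed, and 1 of them came close. Ifih1, which encodes the sensor of long double-stranded RNA, read 176, 196, 248, 270 and 267 in the Trp63 siRNA arrays, against 162 and 150 in the controls. The groups did not overlap, yet silenced replicates 1 and 2 lay nearer to the controls than the other 3. The difference was 0.51 (SE 0.15, 1.42-fold, limma adjusted p = 0.0534). Dhx58, a related helicase that modulates such sensing, differed by 0.02 and overlapped between groups.

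The 5 signalling factors included 1 that rose and 1 that fell. Irf1, a transcription factor that activates interferon-stimulated and class I genes, read 339, 281, 368, 372 and 366 in the Trp63 siRNA arrays, against 253 and 223 in the controls. The groups did not overlap, with silenced replicate 2 the lowest of its group. It rose 1.42-fold (0.51, SE 0.11, limma adjusted p = 0.0143). Stat3, a transcription factor activated by cytokines of the interleukin-6 family and others, read 1507, 1393, 1199, 1300 and 1207 with Trp63 siRNA, against 1762 and 1659 with control siRNA. All silenced arrays were below both controls, and the gene fell 1.30-fold (-0.37, SE 0.095, limma adjusted p = 0.0271). The other 2 Stat3 probe sets differed by -0.23 and -0.24 and did not pass (limma adjusted p = 0.101 and 0.156).

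The factors of the type I complex did not pass. Stat2 differed by 0.00 and Irf9 by 0.24 (limma adjusted p = 0.214), with 1 of the 5 silenced arrays below a control for Irf9. Irf7, a transcription factor that amplifies type I interferon production, averaged 230 ± 22.1 with Trp63 siRNA (SD, n = 5) and 248 ± 2.40 with control siRNA (SD, n = 2), and differed by -0.11.

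Of the 13 antiviral effectors, Bst2 and Oasl2 rose and 11 did not pass. Bst2 encodes tetherin, a membrane protein that holds budding enveloped viruses at the cell surface. It read 338, 297, 342, 416 and 403 in the Trp63 siRNA arrays, against 187 and 156 in the controls. The lowest silenced array was well above the higher control, and the gene rose 1.99-fold (0.99, SE 0.13, limma adjusted p = 0.00101). Oasl2, of the oligoadenylate synthetase family, read 102, 93.1, 105, 122 and 125 with Trp63 siRNA, against 83.1 and 81.4 with control siRNA. All silenced arrays were above both controls (0.35, SE 0.091, limma adjusted p = 0.0322). Its mean is below the 25th percentile, where the probe set is not shown to be above background, so the difference gives a direction and no fold.

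Rsad2, which encodes the antiviral enzyme viperin, was the nearest effector below the threshold. It read 177, 157, 190, 210 and 210 in the Trp63 siRNA arrays, against 154 and 148 in the controls. The groups did not overlap, and the difference was 0.29 (SE 0.10, limma adjusted p = 0.0857).

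None of the other antiviral effectors passed. Ifit1, Ifit2 and Ifit3, whose products bind viral RNA, differed by 0.20, 0.04 and 0.10 (limma adjusted p = 0.118 for Ifit1). Mx1 and Mx2, dynamin-like GTPases, differed by 0.01 and -0.11. Oas1a and Oasl1, of the same family as Oasl2, differed by 0.00 and 0.06. Eif2ak2, the kinase that halts translation on sensing double-stranded RNA, differed by 0.11. The guanylate-binding proteins Gbp2 and Gbp3 differed by -0.05 and 0.05. Members of the Ifit, Oas and Gbp families are similar in sequence, so probes may pick up a relative.

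Among 5 modifiers and regulators, Rtp4 rose. Rtp4, an interferon-induced chaperone of membrane receptors, read 209, 184, 194, 257 and 248 in the Trp63 siRNA arrays, against 165 and 138 in the controls. No silenced array overlapped a control, and the rise was 1.39-fold (0.48, SE 0.13, limma adjusted p = 0.0343). The second Rtp4 probe set differed by -0.05 and did not pass, so the probe sets disagree.

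Usp18, a protease that removes ISG15 from proteins and dampens receptor signalling, read 110, 98.0, 116, 141 and 135 with Trp63 siRNA, against 95.0 and 91.7 with control siRNA. It was above both controls in every silenced array but did not pass (0.31, SE 0.11, limma adjusted p = 0.0938). Ifi35 read 431, 333, 383, 431 and 428 with Trp63 siRNA, against 393 and 344 with control siRNA, an overlap with a difference of 0.11. Ifi27l2a and Trim30a differed by -0.04 and 0.01, and Cxcl10, a chemokine that attracts T cells, by 0.00.

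Over the 24 interferon members that did not pass, 18 differences were above 0 and 6 below, and 14 lay within 0.1 of 0. Their range was -0.11 (Mx2) to 0.51 (Ifih1). An unadjusted p under 0.05 was found for 5 of them, a cut for which no share of all genes is given here. All silenced arrays lay above both controls for 10 of the 30 interferon members (33.3%), and 14.3% of all genes did so. They lay below both controls for 1 member, Stat3, and 24% of all genes did so. Of the 30 members, 19 had a mean below the median of all probe set means (213). Of these, 9 were below the 25th percentile (Ifit2, Oasl2, Mx1, Stat2, Usp18, Cxcl10, Gbp2, Gbp3 and Trim30a), and none of these is shown to be above background. A difference that misses the threshold is not shown to be absent, and the scale understates changes of dim genes.

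**Figure D2:**
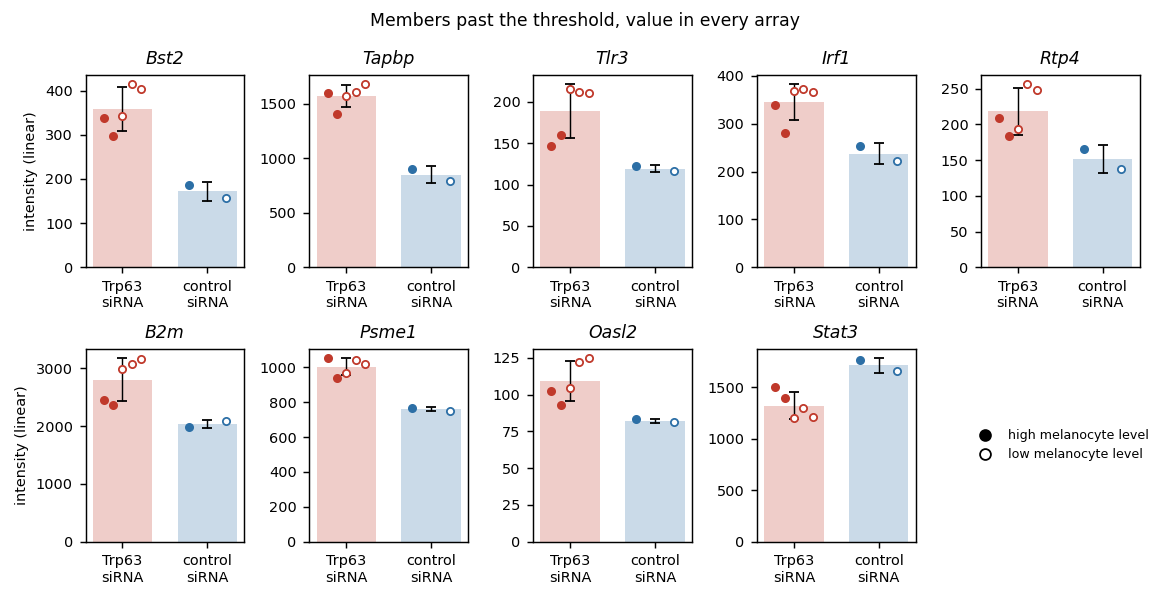
Intensity (vertical axes) of the 9 members past the threshold in each array, with the 5 Trp63 siRNA arrays left of the 2 control siRNA arrays in each panel. Points are arrays, filled for high and open for low melanocyte level, bars are group means and error bars are SD. The silenced arrays lie above both controls in 8 panels and below both in the Stat3 panel.

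The loading factor tapasin had the largest difference of the 10 measured presentation members. Its gene Tapbp read 1600, 1404, 1567, 1608 and 1683 in the Trp63 siRNA arrays, against 905 and 793 in the controls. Every silenced array was far above both controls, and the rise was 1.84-fold (0.88, SE 0.084, limma adjusted p = 0.000206). A second Tapbp probe set read 676, 567, 755, 832 and 794 with Trp63 siRNA, against 309 and 316 with control siRNA, a difference of 1.16 (limma adjusted p = 0.000583).

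The light chain of the class I molecule rose less. B2m, beta-2 microglobulin, read 2444, 2360, 2986, 3070 and 3157 in the Trp63 siRNA arrays, against 1987 and 2079 in the controls. The groups did not overlap, with silenced replicates 1 and 2 closer to the controls than the other 3. The rise was 1.37-fold (0.45, SE 0.12, limma adjusted p = 0.0305), and the second B2m probe set gave 0.46 (limma adjusted p = 0.0200).

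The proteasome activator gene Psme1 also rose. It encodes a subunit of the cap that opens the proteasome, and it read 1054, 941, 967, 1041 and 1020 with Trp63 siRNA, against 768 and 751 with control siRNA. The groups were well apart, and the rise was 1.31-fold (0.39, SE 0.070, limma adjusted p = 0.00519).

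Neither gene of the peptide transporter passed. Tap1, a subunit of it, read 259, 244, 244, 242 and 250 in the Trp63 siRNA arrays, against 278 and 277 in the controls. All silenced arrays were below both controls, and the difference of -0.15 did not pass (SE 0.056, limma adjusted p = 0.0943). Tap2, the other subunit, differed by -0.05 and overlapped.

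The 3 immunoproteasome subunits, catalytic subunits that interferon gamma induces, had differences of -0.08 to -0.11 and none passed. Psmb9 read 134, 129, 136, 142 and 136 with Trp63 siRNA, against 145 and 147 with control siRNA, below both controls in every silenced array (-0.10, limma adjusted p = 0.176). Psmb8 read 207, 206, 195, 185 and 189 with Trp63 siRNA, against 224 and 202 with control siRNA, and the groups overlapped (-0.11, limma adjusted p = 0.306). Psmb10 differed by -0.08. Their constitutive counterparts Psmb5, Psmb6 and Psmb7, named with their values known, differed by 0.02, -0.06 and 0.01.

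The class I heavy chains H2-D1 and H2-K1 did not pass at their highest probe sets. H2-D1 read 2597, 2100, 2210, 2549 and 2457 in the Trp63 siRNA arrays, against 2349 and 2179 in the controls (0.07, limma adjusted p = 0.632). H2-K1 read 2033, 1740, 1700, 2036 and 1908 with Trp63 siRNA, against 1838 and 1706 with control siRNA (0.08, limma adjusted p = 0.544). Silenced and control arrays overlapped for both genes. In all, 3 of 10 presentation members had every silenced array above both controls and 2 (Tap1 and Psmb9) had every one below. These are 30.0% and 20.0% of the members, against 14.3% and 24% of all genes.

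Class I genes are closely related and differ between mouse strains, and their probe sets did not behave alike. None of the 9 H2-D1 probe sets passed, with differences of 0.02 to 0.25. For 3 of them the arrays separated by melanocyte level in place of siRNA. One such probe set read 277, 228, 521, 545 and 547 in the Trp63 siRNA arrays, against 244 in control replicate 5 and 489 in control replicate 6. The Trp63 siRNA replicates 1 and 2 and control replicate 5 were low, and the other 4 arrays were high. H2-Ab1, an MHC class II gene, had the same order of sets, with 146, 141, 194, 210 and 203 in the Trp63 siRNA arrays, against 159 and 224 in the controls. It was named after its values were seen.

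Of the 4 H2-K1 probe sets none passed either, with differences of 0.08 to 0.44. The one with the largest difference read 1433, 1106, 1779, 1878 and 1895 with Trp63 siRNA, against 1100 and 1238 with control siRNA (limma adjusted p = 0.162). The next read 585, 450, 725, 802 and 769 with Trp63 siRNA, against 450 and 546 with control siRNA (0.38, limma adjusted p = 0.237). With the melanocyte sets as a block in the fit, these 2 probe sets passed (limma adjusted p = 0.0265 and 0.0462). Which class I gene such a probe set reads cannot be told apart here.

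**Figure D3:**
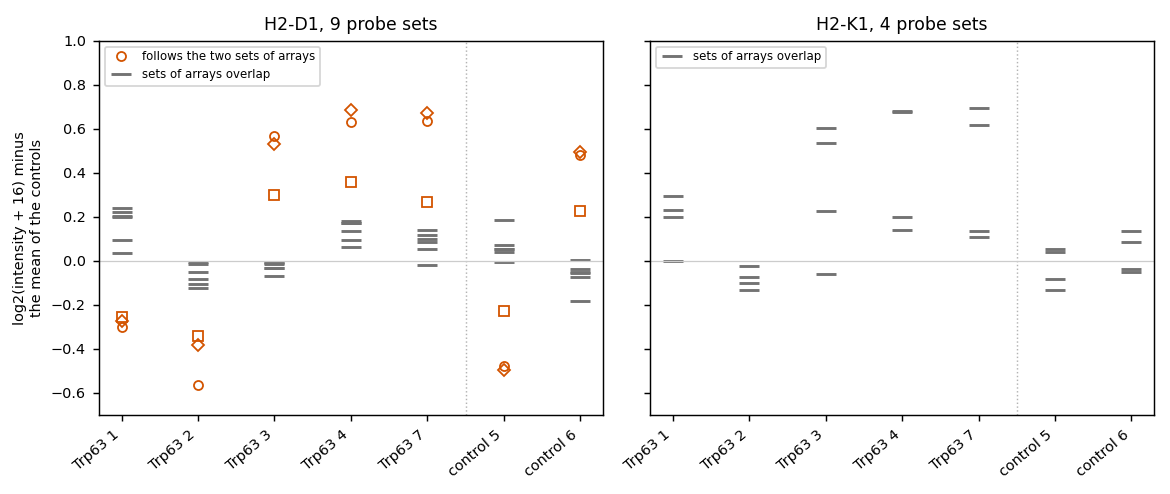
Each probe set of H2-D1 (left, 9) and H2-K1 (right, 4) in the 7 arrays, as log2(intensity + 16) minus the mean of the 2 controls, with the Trp63 siRNA arrays left of the dotted line. Orange symbols mark the 3 H2-D1 probe sets in which Trp63 siRNA 3, 4 and 7 and control 6 all lie above Trp63 siRNA 1 and 2 and control 5.

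The next counts compare the Trp63 siRNA replicates of these sets and leave out the controls. Over the 30 interferon members, the median log2 deviation from the mean of the controls was 0.039 in control replicate 5 and -0.039 in control replicate 6. The controls thus lay in the opposite order to that in the 3 H2-D1 probe sets above. Within the Trp63 siRNA arrays, replicates 3, 4 and 7 all lay above replicates 1 and 2 for 13 of 30 interferon members. The same held for 2 of 10 presentation members and 15.9% of all genes (1976 of 12393). Replicates 3, 4 and 7 all lay below replicates 1 and 2 for 5 interferon members, 2 presentation members and 3139 of all genes. With the sets as a block, 8 interferon members rose and 1 fell, and over all genes 11.7% rose and 13.6% fell. The 3 added members were Ifih1, Rsad2 and Usp18 (limma adjusted p = 0.0109, 0.0335 and 0.0380). Over all the alternatives tried, their limma adjusted p ran from 0.00373 to 0.243 for Ifih1, from 0.0209 to 0.297 for Rsad2 and from 0.0277 to 0.307 for Usp18. The counts of the presentation members stayed at 3 and 0.

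The differences of the called members varied in size between the sets. Their direction inside each set was fixed in advance, because the silenced arrays of each lay all above or all below both controls. Bst2 differed by 0.71 in the high-melanocyte set and by 1.22 in the low set. Tapbp differed by 0.72 and 1.01, Tlr3 by 0.29 and 0.79, and B2m by 0.27 and 0.56, in the same order of sets. All 9 called members had the larger difference in the low set, as did 1349 of the 2057 called genes (65.6%). Each set holds 1 control array, so the difference between sets was not tested. The median of the interferon members was 0.01 within the high set and 0.12 within the low set, and that of the presentation members -0.04 and 0.09.

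**Figure D4:**
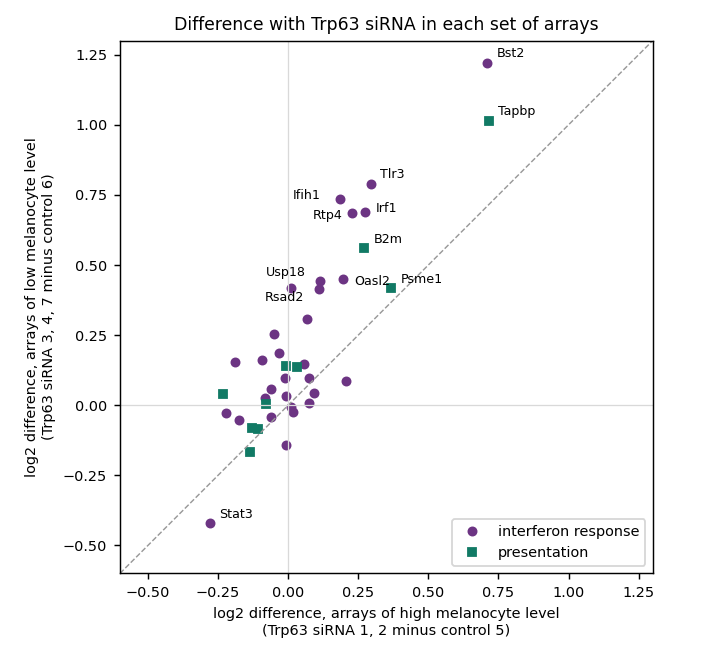
Log2 difference of each measured member (points, interferon response in purple and presentation in green) within the arrays of high melanocyte level (horizontal axis, Trp63 siRNA 1 and 2 minus control 5) and of low melanocyte level (vertical axis, Trp63 siRNA 3, 4 and 7 minus control 6). Bst2 lies at 0.71 and 1.22 and Tapbp at 0.72 and 1.01, and the dashed line marks equal differences.

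A second division followed the bacterial spike transcripts added to the RNA, which were high in Trp63 siRNA replicates 2, 3 and 7 and low in the other 4 arrays. With it as a block, 2 interferon members rose (Bst2 and Irf1, limma adjusted p = 0.00697 and 0.0486), none fell (Stat3 at limma adjusted p = 0.154), and 2 presentation members rose (Tapbp and Psme1, limma adjusted p = 0.00258 and 0.0120). Over all genes 5.45% rose and 3.57% fell in that fit, so the 6.67% of interferon members that rose is near the share of all genes. The calls of Tlr3, Rtp4, Oasl2 and B2m were lost in that fit. Their differences were 0.51, 0.57, 0.38 and 0.43 there, against 0.59, 0.48, 0.35 and 0.45 without the block. Both controls were in the low set. The siRNA difference in that fit therefore rests on Trp63 siRNA replicates 1 and 4 against them. Bst2 and Tapbp kept their calls in each of the 19 alternatives tested, with limma adjusted p between 0.000218 and 0.0244 for Bst2 and between 2.96e-05 and 0.00555 for Tapbp.

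The other 7 calls each ended when 1 particular array was left out. Without control replicate 5, limma's adjusted p was 0.145 for Oasl2, 0.185 for Stat3, 0.0729 for Rtp4, 0.110 for Tlr3 and 0.180 for B2m. Without control replicate 6 it was 0.170, 0.108, 0.244, 0.147 and 0.130 for the same genes, and Irf1 and Psme1 were lost as well (limma adjusted p = 0.142 and 0.0610). B2m was also lost without Trp63 siRNA replicate 3, 4 or 7 (limma adjusted p = 0.0603, 0.0634 and 0.0578), and so was Stat3 (0.0517, 0.0607 and 0.0601). Oasl2 was lost without silenced replicate 4 (limma adjusted p = 0.0561) and Rtp4 without replicate 4 or 7 (0.0547 and 0.0638). Stat3 and Rtp4 were lost with the mean of all their probe sets (limma adjusted p = 0.0636 and 0.0684), and Oasl2 without a variance trend or with robust estimation (0.0523 and 0.0549). Over all alternatives the limma adjusted p ran from 0.00236 to 0.142 for Irf1 and from 0.00149 to 0.0610 for Psme1.

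Of the further genes of interferon signalling, 58 of 74 were measured. In this list 5 rose (8.62%) and 4 fell (6.90%), near the 8.03% and 8.57% of all genes, and 49 did not pass. At an unadjusted p under 0.05, 5 differences were above 0 and 14 below, a cut for which no share of all genes is given here. All silenced arrays lay above both controls for 9 of the 58 (15.5%) and below both for 14 (24.1%). These are near the 14.3% and 24% of all genes. The median difference was -0.03, against -0.04 for all genes. Isg20, an interferon-induced exonuclease that degrades RNA, read 294, 291, 353, 331 and 351 in the Trp63 siRNA arrays, against 148 and 157 in the controls. It was above both controls throughout and rose 2.01-fold (1.01, SE 0.089, limma adjusted p = 0.000130). Il10rb, a receptor chain shared by interleukin-10 and interferon lambda, rose 1.55-fold (0.63, limma adjusted p = 0.000398). Tlr2, a receptor for bacterial lipoproteins, Nmi, an interferon-induced partner of STAT proteins, and Irgm1, an immunity-related GTPase, rose by 0.47, 0.58 and 0.47 (limma adjusted p = 0.00782, 0.0253 and 0.0415). Isg20 and Il10rb kept their calls without any 1 array, with a highest limma adjusted p of 0.00358 and 0.0106. Tlr2 was lost without either control (up to 0.0744), Nmi without Trp63 siRNA replicate 3 or 4 or control replicate 6 (up to 0.223), and Irgm1 without silenced replicate 3, 4 or 7 or either control (up to 0.187, limma adjusted p).

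The 4 that fell included an interferon-induced chemokine. Ifi204, of the family of nuclear DNA-binding interferon-inducible proteins, read 70.2, 72.6, 89.1, 79.2 and 91.2 with Trp63 siRNA, against 120 and 161 with control siRNA (-0.69, limma adjusted p = 0.00318). All 5 silenced values are below the 25th percentile of probe set means, so no fold is given. Cxcl11, which shares a receptor with Cxcl10, fell by 0.26 and Pml, the scaffold of nuclear bodies, by 0.31 as log2 differences (limma adjusted p = 0.0263 and 0.0423). Ifitm3, which blocks virus entry and was named with its values known, read 1823, 1196, 1429, 1626 and 1652 in the Trp63 siRNA arrays, against 2277 and 2054 in the controls (-0.49, limma adjusted p = 0.0438). Ifi204 kept its call without any 1 array (limma adjusted p up to 0.0446). Cxcl11 was lost without Trp63 siRNA replicate 7 or either control (up to 0.159), Ifitm3 without silenced replicate 3, 4 or 7 or either control (up to 0.261), and Pml without any array but Trp63 siRNA replicate 1 (up to 0.209, limma adjusted p).

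Of 34 measured further genes of peptide loading and the proteasome, from 41 listed, 2 rose, 32 did not pass and none was lower past the threshold in limma. At an unadjusted p under 0.05, 9 were lower and 3 higher, without a share of all genes at that cut. The 5.88% that rose is below the 8.03% of all genes, and the median difference was -0.02. All silenced arrays lay below both controls for 12 of the 34 (35.3%) and above both for 4 (11.8%). Over all genes these shares were 24% and 14.3%. Hspa5, the main chaperone of the endoplasmic reticulum, read 4820, 6128, 5120, 5159 and 5162 in the Trp63 siRNA arrays, against 3841 and 3641 in the controls (0.49, 1.40-fold, limma adjusted p = 0.00338). Ide, a protease of peptides, read 2533, 3018, 2609, 3138 and 3133 with Trp63 siRNA, against 2108 and 1786 with control siRNA (0.56, 1.48-fold, limma adjusted p = 0.00641). Both genes were above both controls in all 5 silenced arrays, and both calls ended without control replicate 6 (limma adjusted p = 0.0528 for Hspa5 and 0.0889 for Ide). The peptide-loading chaperones Calr and Pdia3, named with their values known, differed by 0.16 and 0.24 and did not pass.

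Markers of other cells were read because leukocytes carry high levels of many of these genes. Of 12 measured leukocyte markers 2 rose, 1 fell and 9 did not pass, and their summed intensity was 2088 to 2326 with Trp63 siRNA and 2068 to 2175 with control siRNA. Ptprc, the common leukocyte antigen, named with its values known, lay at 71.7 to 77.8 in the Trp63 siRNA arrays and at 73.9 and 77.7 in the controls, near the lowest intensity of the table (58.5). Cd68 and Cd14, macrophage and monocyte markers, rose by 0.60 and 0.52 (limma adjusted p = 0.0240 and 0.00271), and Tyrobp, a myeloid signalling adaptor, fell by 0.20 (limma adjusted p = 0.0178). Cd68 was lost without Trp63 siRNA replicate 2 or 7 or control replicate 6 and Tyrobp without either control (limma adjusted p up to 0.226 and 0.112). Csf1r differed by -0.06 and did not pass. None of the 6 class II markers passed in limma, with 0 at an unadjusted p under 0.05, at a summed 818 to 919 with Trp63 siRNA and 901 to 920 with control siRNA.

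Of the 9 measured keratinocyte markers 8 fell and 1 did not pass. Krt14, a keratin of basal keratinocytes that held the highest intensity of the table, read 15168, 15065, 14413, 14684 and 14796 in the Trp63 siRNA arrays, against 16960 and 17165 in the controls, and fell 1.15-fold (limma adjusted p = 0.000455). Krt5, Krt15, Perp and Sfn fell by 0.32, 0.42, 0.31 and 0.60, and the adhesion genes Itga6, Itgb4 and Col17a1 by 0.89, 1.06 and 0.96, on the log2 scale. The 9 markers had summed intensities of 46053 to 51300 with Trp63 siRNA and 62883 to 64993 with control siRNA. Fewer keratinocytes and less of these RNAs per cell cannot be told apart here. The 7 melanocyte markers summed to 6739 to 11857 with Trp63 siRNA and 6576 to 9945 with control siRNA, and none passed in limma (0 at an unadjusted p under 0.05). Of 7 fibroblast markers, Col1a1, a collagen gene, rose by 0.44 (limma adjusted p = 0.00320, and 0.0504 without control replicate 6), and their sums were 1195 to 1426 with Trp63 siRNA and 1056 to 1229 with control siRNA. None of 4 endothelial markers passed in limma (1 at an unadjusted p under 0.05), with sums of 403 to 419 with Trp63 siRNA and 420 to 462 with control siRNA. The part of other cells in the results was not tested.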

How the data were processed

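Biotin-labelled complementary RNA from the total RNA of 7 samples was read on Affymetrix arrays, per the labels' protocols. The authors deposited 1 linear intensity per probe set and array. The sources used here do not state how probes were summarised or arrays normalised. The table held 22690 probe sets, and the 64 array controls among them were not tested. The platform annotation gave 20380 of the 22626 tested probe sets 1 symbol, 691 several and 1555 none, and 20351 matched a current gene by Entrez ID. Intensities were used as deposited, as log2(intensity + 16), and the 5 Trp63 siRNA and 2 control siRNA arrays were compared with limma 3.58.1 under R 4.3.3 (lmFit, then eBayes with a variance trend, two-sided, Benjamini-Hochberg over all 22626 probe sets, threshold 0.05). No detection calls were used, and no filter was applied on dim probe sets. Every adjusted p is limma's from this fit unless another setting is named.

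Members and lists were chosen with earlier results of these data known. Values by array were given for members past the threshold, the 3 uncalled members with the smallest p and the 3 with the highest means in each group. Further pathway genes were named where called, up to 8 per list, and markers where called or brightest. Genes outside this rule are marked where they appear. Counts at an unadjusted p under 0.05 are given without the share of all genes at that cut.

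In simulated data for this comparison with 22626 probe sets, the fit recovered 35 of 50 probe sets changed by 0.5, 95 of 100 by 1 and 48 of 50 by 2 on the log2 scale, with 7 false calls among 185. The simulated noise was independent between arrays, without the melanocyte and spike divisions. Far fewer probe sets were changed than the 1771 higher and 1847 lower ones called in the real arrays. For both reasons these rates may not hold for the real arrays. Alternatives covered normalisation, pseudocounts of 1 and 64, a filter on dim probe sets, variance model, array weights, the choice among probe sets of 1 gene and the omission of each array. Blocks for the melanocyte split (7 markers) and the spike split (24 probe sets), each made at the widest gap in mean level, were added after seeing the data. Promoter sequences are RefSeq's (GRCm38.p6). Plots used matplotlib 3.10.9 (Python 3.11.15).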

Additional observations from a re-analysis of the deposited data

Results flagged for a closer look

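Ifnar1, a chain of the type I interferon receptor, read 241.6 in Trp63 siRNA replicate 4, apart from the other 4 silenced arrays, which lay between 225 and 229. The gap to the nearest of them was 0.726 of the range of the group, above the critical 0.71 for 5 arrays. It was the only 1 of 40 measured members with such an array, and chance gives this in about 1 of 20 groups.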

How the results depend on the processing

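No paired analysis was possible because the groups share no replicate number. Quantile normalisation, median centring and the pseudocounts of 1 and 64 kept each count within 1.5 times its reported value. The count of interferon members that rose (5 as reported) was 2 among probe sets at or above the median of means, which leaves dim members untested, 8 with array weights, 8 with the melanocyte block, 2 with the spike block, and 1 to 7 when each array was left out (3 without Trp63 siRNA replicate 4, 2 without control replicate 5 and 1 without control replicate 6). The 1 that fell became 0 with the mean of all probe sets and with the spike block, and 0 to 1 without each array. Presentation members that rose (3) numbered 1 to 3 without each array. Those that fell (0) numbered 1 without a variance trend, 1 with array weights and 0 to 1 without each array.

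Further interferon genes that rose (5) numbered 3 with the spike block and 2 to 5 without each array. Those that fell (4) numbered 8 with array weights, 8 by the smallest p, 9 with the melanocyte block, 1 with the spike block and 1 to 10 without each array (10 without Trp63 siRNA replicate 1). Further presentation genes that rose (2) numbered 4 by the smallest p and 0 to 3 without each array. Those that fell (0) numbered 2 with array weights, 2 with the mean of all probe sets, 3 by the smallest p, 2 with the melanocyte block and 0 to 3 without each array.

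Over all probe sets, 1771 rose, 1135 with the spike block and 776 to 2326 without each array. The 1847 that fell numbered 2823 with array weights, 2895 with the melanocyte block, 785 with the spike block and 598 to 3176 without each array. The lowest of both came without control replicate 6 and the highest without Trp63 siRNA replicate 1. The median interferon difference (0.08) was 0.014 within the high-melanocyte set, and 0.025 to 0.097 without each array (lowest without control replicate 6). The median presentation difference (0.01) was 0.10 with the spike block and -0.038 to 0.087 without each array (0.087 without control replicate 5, -0.038 without control replicate 6 and -0.023 without Trp63 siRNA replicate 1), so its sign is not settled. The causes of these changes were not tested. Without a control, the 1 that is left is assumed to vary as the silenced arrays do. Of 818 alternatives for single members, 30 lost a call and 14 gained one. The sign changed in 45, in 14 members that were not called. Many members are dim, which limits their precision.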
